A study of Mus musculus with 12 samples.

Results

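The TREM and CD300 receptors are 2 families of cell surface immunoglobulin-type receptors that myeloid cells use to sense lipids, dying cells and microbial products. Many of them carry no signaling tail of their own and depend on Tyrobp, which encodes the adaptor DAP12. Its ITAM motif recruits the kinase Syk once a receptor is engaged. Other family members carry inhibitory ITIM motifs that recruit phosphatases instead. In brain tumors the families are of interest because Trem2 marks microglia and tissue macrophages, whereas Trem1 and Cd300ld are known mainly from neutrophils and monocytes. The set described here holds 10 genes of the 19938 genes measured, namely Trem1, Trem2, Trem3, Treml2, Treml4, Cd300a, Cd300lb, Cd300ld, Cd300lf and Tyrobp. They were chosen by name, and each was read from the probe set that carries its symbol alone, taking the brightest where a gene had several.

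The values come from 12 Affymetrix mouse gene arrays, 1 for each flow-sorted population, so no population had a replicate. All mice were C57BL/6. Tumor-bearing mice received GL261 glioma cells, a transplanted mouse glioma line, at an age of 7 weeks and were killed 2 weeks later, and the labels carry the same age for the normal mice. From tumor brains came microglia (tumor MG, CD11b+/CD45low), macrophages (tumor MP, CD11b+/CD45high), Gr1+ and Gr1- cells. The blood of tumor-bearing mice gave Gr1+ and Gr1- cells and the populations called blood macrophage high and low. Normal brains gave normal MG and normal MP, and normal blood gave its own blood macrophage high and low. The sources used here do not define the gates of the blood macrophage populations, and they do not say how many mice were pooled for an array. All values are log2 expression values as deposited. A value is called above background when it exceeded the 95th percentile of 1027 olfactory receptor genes on its own array, a level that lay between 8.93 and 10.09. Because the populations were sorted in bulk, a lower value may mean fewer cells of a type or less RNA per cell, and these cannot be told apart.

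Several arrays carried markers that went against their labels, and this touches every comparison that uses them. Blood Gr1- had all 11 measured microglia markers above background and correlated across genes with tumor MP at r = 0.96, although its label is blood, and whether that label holds was not tested. Blood Gr1+ and blood Gr1- each had 2 of 6 markers of other brain cells above background. Tumor blood macrophage low had 10 of 10 NK cell markers above background and normal blood macrophage high had 8 of 10, with 0 of 13 neutrophil markers on either array. Tumor blood macrophage high and normal blood macrophage low had 10 of 13 neutrophil markers and no NK cell marker above background. These 2 arrays also had 7 and 6 of 7 monocyte markers above background. Normal blood macrophage high had 0 and tumor blood macrophage low had 3. Of 5 B cell markers, 4 or 5 were above background on each of the 4 blood macrophage arrays and 4 on blood Gr1-. In the brain, normal MP had 13 of 13 neutrophil markers and 5 of 5 markers of brain border macrophages above background, against 1 of 13 and 1 of 5 on normal MG. Tumor MP had 2 and 1 of these. Tumor Gr1+ had 3 of 13 neutrophil and 7 of 7 monocyte markers, and blood Gr1+ had 10 of 13 and 7 of 7. Of 7 monocyte markers, 5 lay above background on tumor MG and 0 on normal MG. The tumor MG and tumor MP arrays correlated across genes at r = 0.97. All 11 microglia markers were above background on tumor MP, normal MP, tumor Gr1- and normal MG, and 10 of 11 on tumor MG. Their median was 11.78 on tumor MP, 11.48 on tumor MG, 11.11 on normal MP and 12.88 on normal MG. Normal blood macrophage high had the highest background level of all arrays, at 10.09, and only 11.2% of genes above it, against 26.3% to 39.1% on the other arrays. The part these differences play in the results below was not tested.

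The genes lie in clusters. In the RefSeq table Cd300a, Cd300lb, Cd300ld and Cd300lf follow each other in this order on chromosome 11. Trem1, Trem3, Treml4, Treml2 and Trem2 do so on chromosome 17, and Tyrobp lies on chromosome 7. RefSeq promoter windows of build GRCm38.p6, from 250 bases before to 50 after the gene start, were at hand for 7 of the 10 genes. They were searched on both strands for GAGGAA, the core of sites bound by the myeloid factor PU.1 (TTCCTC on the other strand), and for TTNNGNAA, the pattern of C/EBP sites (TTNCNNAA on the other strand). A match to the first was found in 6 of 7 windows, against 28.3% of 32841 windows in the table, and a match to the second in 6 of 7, against 40.7%. The patterns can overlap in their letters. The Cd300lb window held neither. The 4 windows below belong to genes on which the comparisons turn. Trem2 (chr17:48346151-48346450, plus strand) was above background on every brain array and 1 blood array, and Trem1 (chr17:48232489-48232788, plus strand) on blood arrays alone. Cd300ld (chr11:114989837-114990136, minus strand) was above background on 5 arrays, from brain and from blood. Cd300lf (chr11:115133943-115134242, minus strand) differed most between tumor MG and normal MG. Capitals mark every match, read 5′ to 3′ along the gene, and a match is a description of letters, not evidence of binding.
Trem2: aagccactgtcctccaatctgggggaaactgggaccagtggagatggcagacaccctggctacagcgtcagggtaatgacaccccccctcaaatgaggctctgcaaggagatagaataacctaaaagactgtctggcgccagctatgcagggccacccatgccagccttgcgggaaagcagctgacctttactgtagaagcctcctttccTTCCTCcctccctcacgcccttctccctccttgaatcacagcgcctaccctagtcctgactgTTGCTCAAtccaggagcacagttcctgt
Trem1: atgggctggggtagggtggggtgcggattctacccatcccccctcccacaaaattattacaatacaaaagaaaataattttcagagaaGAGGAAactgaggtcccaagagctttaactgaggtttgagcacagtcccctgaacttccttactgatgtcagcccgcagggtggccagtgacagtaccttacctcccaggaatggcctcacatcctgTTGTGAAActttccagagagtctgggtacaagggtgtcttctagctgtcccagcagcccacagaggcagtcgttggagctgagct
Cd300ld: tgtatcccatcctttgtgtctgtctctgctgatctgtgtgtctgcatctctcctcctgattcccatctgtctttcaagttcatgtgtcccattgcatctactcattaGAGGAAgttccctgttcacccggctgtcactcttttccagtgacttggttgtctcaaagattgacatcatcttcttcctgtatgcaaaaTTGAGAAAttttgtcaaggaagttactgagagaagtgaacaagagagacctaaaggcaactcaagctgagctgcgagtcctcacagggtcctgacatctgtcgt
Cd300lf: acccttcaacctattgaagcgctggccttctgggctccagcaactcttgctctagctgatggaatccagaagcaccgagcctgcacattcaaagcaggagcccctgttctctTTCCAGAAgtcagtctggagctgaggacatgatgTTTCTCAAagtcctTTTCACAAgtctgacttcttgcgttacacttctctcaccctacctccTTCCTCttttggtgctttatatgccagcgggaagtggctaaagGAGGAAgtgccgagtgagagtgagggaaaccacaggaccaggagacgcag

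Across the 12 arrays, 66 of the 120 values of the 10 genes lay above background. The count was 9 of 10 genes on normal MP, blood Gr1+, tumor blood macrophage high and normal blood macrophage low. It was 7 on tumor Gr1+, 5 on tumor Gr1-, 4 each on tumor MG, tumor MP and blood Gr1-, 3 on normal MG, 2 on tumor blood macrophage low and 1 on normal blood macrophage high. Tyrobp was the only gene above background on all 12 arrays, and Trem1 was above it on the fewest, at 3. With 1 array per population there is no replicate spread, so the order of 2 neighboring levels of a gene could not be tested.

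**Figure D1:**
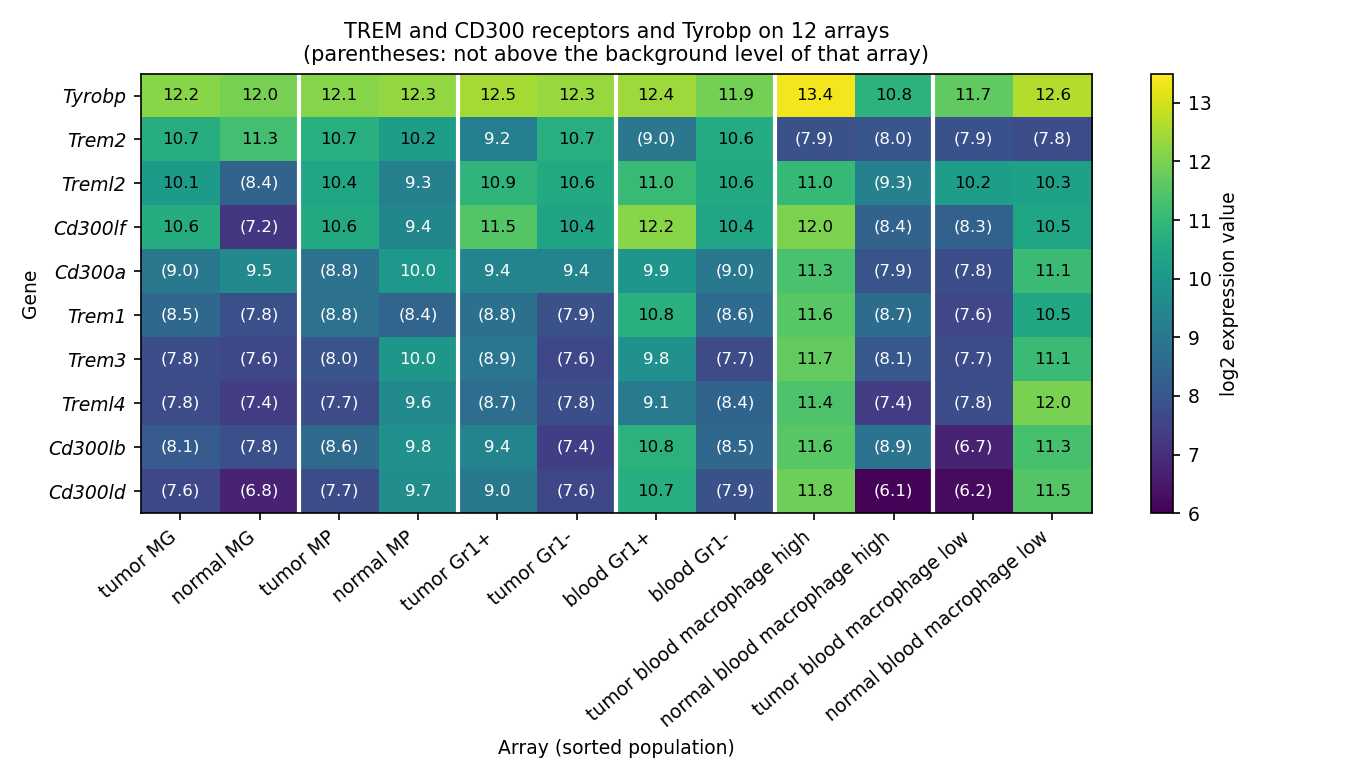
Log2 expression value (color and number) of the 10 genes (rows) on the 12 arrays (columns), with values that did not exceed the background of their array in parentheses. Trem2 was above background on 7 arrays, 6 of them from brain, and was lowest, between 7.77 and 8.02, on the 4 blood macrophage arrays, where Cd300ld spanned 6.08 to 11.85.

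The adaptor Tyrobp varied little in brain. Its log2 value was 12.16 on tumor MG, 12.13 on tumor MP, 12.50 on tumor Gr1+, 12.34 on tumor Gr1-, 11.97 on normal MG and 12.29 on normal MP. In blood it was 12.40 on Gr1+, 11.94 on Gr1-, 13.38 on tumor blood macrophage high, 11.67 on tumor blood macrophage low, 10.84 on normal blood macrophage high and 12.63 on normal blood macrophage low. The 6 brain values thus lay within the range of the 6 blood values, whose extremes were the tumor and normal blood macrophage high arrays.

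Trem2, the DAP12-dependent receptor through which microglia sense lipids and apolipoproteins, had its own pattern. Brain values were 10.67 on tumor MG, 10.72 on tumor MP, 9.23 on tumor Gr1+, 10.69 on tumor Gr1-, 11.27 on normal MG and 10.18 on normal MP. Blood values were 8.96 on Gr1+, 10.61 on Gr1-, 7.86 and 7.89 on tumor blood macrophage high and low, and 8.02 and 7.77 on normal blood macrophage high and low. All 6 brain arrays were above background, and the only blood array above it was Gr1-, the one that carried the microglia markers. Without that array brain and blood values did not overlap, though the margin was narrow and rested on single Gr1+ arrays. Trem2 was 9.23 against a background of 9.01 on tumor Gr1+, and 8.96 against 9.09 on blood Gr1+. The genes with the most similar pattern among 8231 others above background on 3 or more arrays were the microglial gene Tmem119 (Pearson's r = 0.99, Spearman's rho = 0.965), Sparc (0.99 and 0.98) and Syngr1 (0.98 and 0.96), over 12 arrays that mix cell types.

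Trem1 amplifies inflammatory signals in neutrophils and monocytes. It was above background in blood alone, at 10.76 on Gr1+, 11.56 on tumor blood macrophage high and 10.47 on normal blood macrophage low. The other blood values were 8.63 on Gr1-, 7.60 on tumor blood macrophage low and 8.66 on normal blood macrophage high. Brain values ran from 7.83 on normal MG to 8.79 on tumor MP, with 8.52 on tumor MG, 8.76 on tumor Gr1+, 7.85 on tumor Gr1- and 8.45 on normal MP, none above background. The 3 high arrays were those of the blood with 10 of 13 neutrophil markers, and they had 6 or 7 of 7 monocyte markers above background. Normal MP, with 13 of 13 neutrophil markers above background, had Trem1 below it (8.45 against 9.07). Clec4d, a C-type lectin receptor of myeloid cells, was most like it (r = 0.97, rho = 0.87).

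Trem3, a DAP12-coupled receptor of mouse myeloid cells, and Cd300lb, which also signals through DAP12, were high on the same blood arrays and on normal MP. Trem3 was at 11.70 on tumor blood macrophage high, 11.11 on normal blood macrophage low, 9.80 on blood Gr1+ and 9.98 on normal MP. It stayed between 7.63 and 8.95 on the other 8 arrays, all below background. Cd300lb was at 11.55, 11.32, 10.81 and 9.77 on the same 4 arrays and at 9.37 on tumor Gr1+, and ran from 6.72 to 8.87 on the other 7. Trem3 and Cd300lb correlated at r = 0.93 over the 12 arrays.

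Cd300ld, whose product couples to the Fc receptor gamma chain, had a range of 5.77 on the log2 scale, from 6.08 on normal blood macrophage high to 11.85 on tumor blood macrophage high. It was above background on 5 arrays, at 11.85 on tumor blood macrophage high, 11.49 on normal blood macrophage low, 10.67 on blood Gr1+, 9.67 on normal MP and 9.02 on tumor Gr1+. The last value lay just above the background of 9.01 on that array. On tumor MG, tumor MP, tumor Gr1- and normal MG it was at 7.63, 7.73, 7.64 and 6.75. The gene with the most similar pattern was Pygl, a glycogen phosphorylase (r = 0.99, rho = 0.96), followed by Nadk and Gsr.

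Treml4, a receptor for dying cells that enhances responses through TLR7 in mice, was highest on normal blood macrophage low, at 11.99, and on tumor blood macrophage high, at 11.39. It was also above background on normal MP (9.58) and, narrowly, on blood Gr1+ (9.11 against 9.09), and lay between 7.36 and 8.72 elsewhere. Adgre4 (r = 0.97, rho = 0.95), Nr4a1 (0.97 and 0.96) and Ace (0.97 and 0.92) were closest to it in pattern. Treml2, a TREM-like receptor of B cells and myeloid cells, was above background on 10 of 12 arrays. Its values in brain were 10.09 on tumor MG, 10.43 on tumor MP, 10.88 on tumor Gr1+, 10.56 on tumor Gr1-, 8.38 on normal MG and 9.26 on normal MP. In blood they were 11.05 on Gr1+, 10.56 on Gr1-, 11.02 and 10.20 on tumor blood macrophage high and low, and 9.31 and 10.29 on normal blood macrophage high and low. Its lowest values were those of normal MG, normal MP and normal blood macrophage high.

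The ITIM receptors differed from each other. Cd300lf, which binds phosphatidylserine on dying cells and is the entry receptor of murine norovirus, was at 10.64 on tumor MG, 10.56 on tumor MP, 11.48 on tumor Gr1+, 10.39 on tumor Gr1-, 7.20 on normal MG and 9.44 on normal MP. In blood it was at 12.17 on Gr1+, 10.45 on Gr1-, 12.02 and 8.33 on tumor blood macrophage high and low, and 8.39 and 10.45 on normal blood macrophage high and low. All 4 tumor brain arrays were higher than both normal brain arrays. Cd300a, an inhibitory receptor for phosphatidylserine and phosphatidylethanolamine, was lower on tumor than on normal arrays of MG and MP. It was at 9.01 on tumor MG, 8.79 on tumor MP, 9.35 on tumor Gr1+, 9.38 on tumor Gr1-, 9.55 on normal MG and 10.00 on normal MP, and it reached 11.34 on tumor blood macrophage high and 11.10 on normal blood macrophage low. Cd300lf and Treml2 correlated at r = 0.89 over the 12 arrays, whereas Cd300a and Treml2 did at 0.25. Trem2 correlated negatively with each of the other 9 genes, from -0.58 with Trem3 to -0.07 with Tyrobp.

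**Figure D2:**
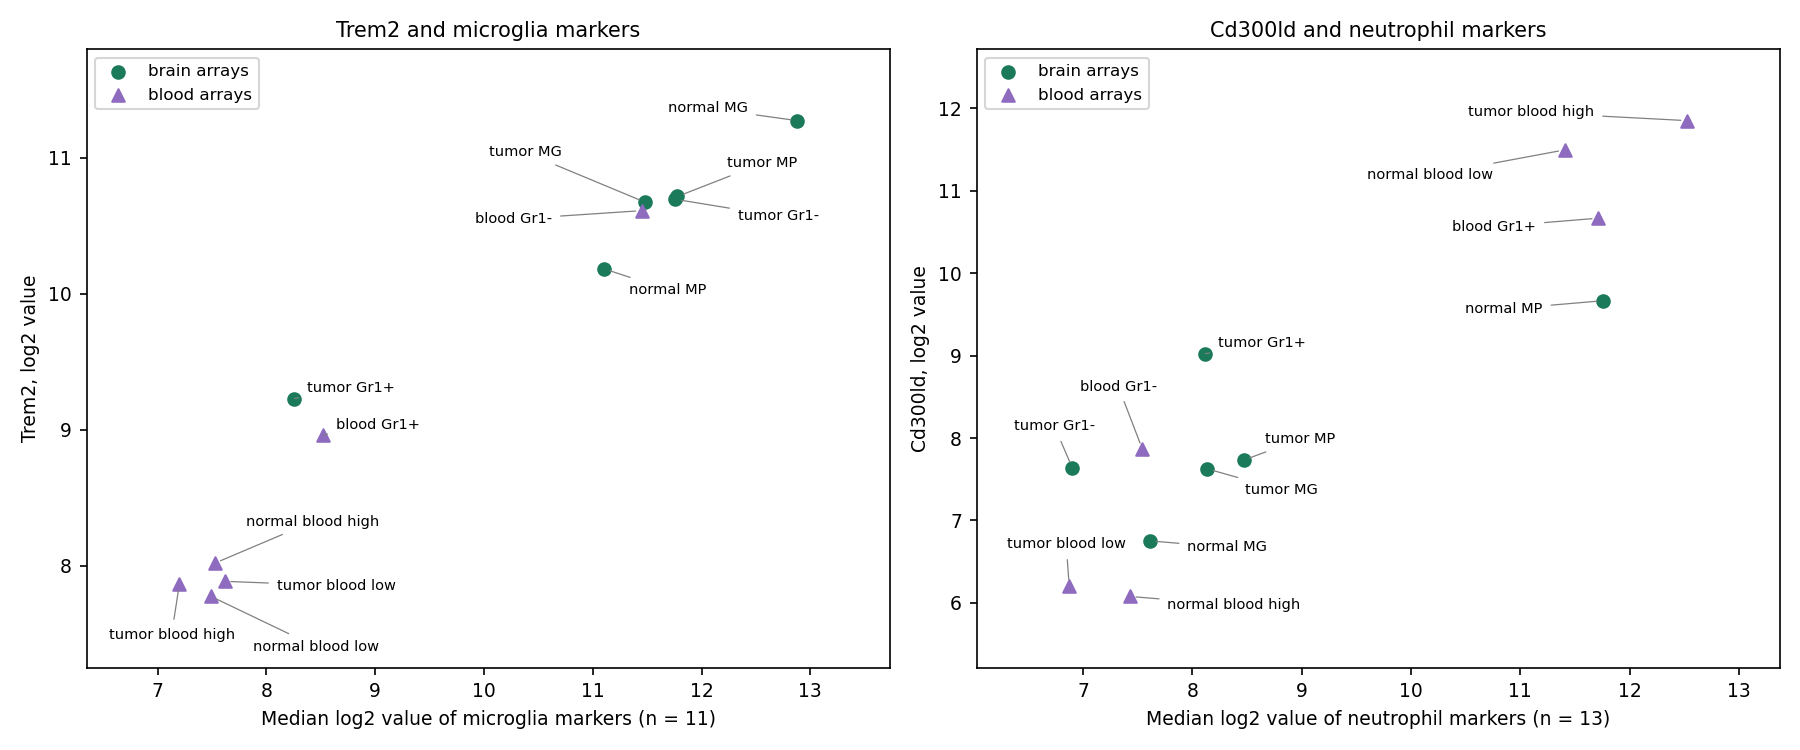
Left, log2 value of Trem2 (vertical axis) against the median log2 value of 11 microglia markers (horizontal axis). Right, Cd300ld against the median of 13 neutrophil markers. Each point is 1 array, circles from brain and triangles from blood, and blood high and low stand for blood macrophage high and low. The blood Gr1- array lies among the brain arrays on the left, with a marker median of 11.45, and normal MP lies with 3 blood arrays on the right, with a marker median of 11.76.

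The comparison of tumor with normal brain asked how these receptors differ between cells of a glioma and their counterparts in normal brain. In MG, Cd300lf and Treml2 were higher by 2-fold or more on the tumor array, and no gene of the set was 2-fold lower. Cd300lf was 10.64 on tumor MG and 7.20 on normal MG, a log2 difference of 3.44. Treml2 was 10.09 on tumor MG and 8.38 on normal MG, a difference of 1.72. Both were below background on normal MG, and with that value raised to background the differences were 1.20 and 0.66. Among all 19938 genes 6.05% were 2-fold apart, 2.44% upward and 3.61% downward, a split that turned with the scaling, to 2.80% upward and 2.23% downward under cyclic loess. The median difference of the 10 genes was 0.35, against -0.09 for all genes. Trem2 was 10.67 on tumor MG and 11.27 on normal MG, a difference of -0.60. Trem1, Trem3, Treml4, Cd300lb and Cd300ld were above background on neither array. Between the same arrays 6 of 7 monocyte markers were higher by 2-fold or more on tumor MG, with a median difference of 2.14. Their part in the values of Cd300lf and Treml2 was not tested.

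In MP the same 2 genes were higher and 5 others lower. Cd300lf was 10.56 on tumor MP and 9.44 on normal MP, a difference of 1.12, and Treml2 was 10.43 and 9.26, a difference of 1.17. Both were above background on both arrays. Trem3 (-2.02), Cd300ld (-1.93), Treml4 (-1.84), Cd300a (-1.21) and Cd300lb (-1.16) were at least 2-fold lower, with values above background on normal MP alone. Among all genes 5.23% were 2-fold apart, 1.65% upward and 3.58% downward. Raised to the background of tumor MP, the differences of these 5 genes shrank to between -0.77 and -0.35. Between the same arrays 12 of 13 neutrophil markers and 5 of 5 brain border macrophage markers were at least 2-fold lower on tumor MP, with median differences of -3.83 and -3.85. The part of these cells in the 5 lower values was not tested. Trem2 was 10.72 on tumor MP and 10.18 on normal MP, a difference of 0.53, so that its sign was opposite to that in MG, and neither difference reached 2-fold. The microglia markers differed in the same directions. Of 11, 6 were lower by 2-fold or more on tumor MG, with a median difference of -1.01, and 4 were higher on tumor MP, with a median of 0.82. Their part in the Trem2 values was not tested.

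**Figure D3:**
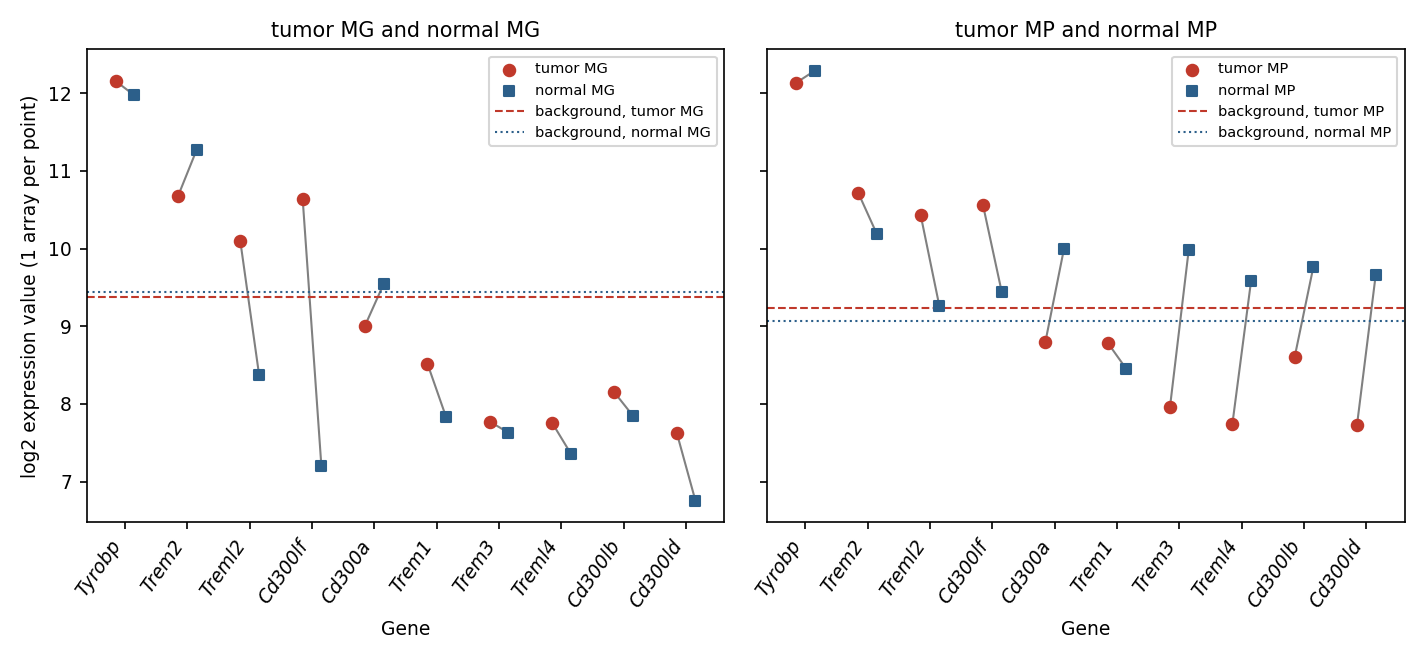
Log2 value of the 10 genes on tumor MG and normal MG (left) and on tumor MP and normal MP (right), 1 array per point, tumor as circles and normal as squares. Lines join the 2 arrays of a gene, and horizontal lines give each array's background. Cd300lf and Treml2 were higher on the tumor array in both panels, and 5 genes were above background on normal MP but not on tumor MP.

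Set against each other within normal brain, MP and MG differed in 6 of the 10 genes. Cd300ld (2.91), Trem3 (2.35), Cd300lf (2.25), Treml4 (2.22) and Cd300lb (1.92) were at least 2-fold higher on normal MP, and Trem2 was lower (-1.09). Among all genes 7.46% were 2-fold apart, 4.35% upward and 3.11% downward, or 5.69% and 1.64% under cyclic loess. The 5 genes that were higher lay below background on normal MG, and with those values raised to background none of them reached 2-fold. Of the 13 neutrophil markers 12 were higher by 2-fold or more on normal MP, as were 7 of 7 monocyte and 5 of 5 border macrophage markers. All 11 microglia markers were lower there, with a median difference of -1.77. Within the tumor, MP and MG did not differ by 2-fold in any of the 10 genes, and the differences ran from -0.21 for Cd300a to 0.46 for Cd300lb. Only 4 of the 10 genes were above background on 1 or both of these arrays, and Cd300a and Cd300lb were not among them. Of all genes 0.341% were 2-fold apart there. None of the 11 microglia markers was, and their median difference was 0.11.

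The Gr1 comparison asked how cells with the surface marker Gr1, which is found on monocytes and neutrophils, differ from cells without it. It was made in tumor brain and in blood, with 1 array for each. In the tumor Cd300lb was at 9.37 on Gr1+ and 7.39 on Gr1-, a difference of 1.98. Cd300ld was at 9.02 on Gr1+ and 7.64 on Gr1-, a difference of 1.38. Cd300lf was at 11.48 on Gr1+ and 10.39 on Gr1-, a difference of 1.09, and Trem3 was 1.32 higher with both arrays below background. Trem2 was at 9.23 on Gr1+ and 10.69 on Gr1-, a difference of -1.47. These 4 higher and 1 lower genes stand beside 7.99% of all genes, 2.88% upward and 5.12% downward. Cd300lf and Trem2 were above background on both arrays, and Cd300lb and Cd300ld on Gr1+ alone. In blood 5 genes were higher and 1 lower, beside 7.51% of all genes, 3.2% upward and 4.31% downward, or 4.12% and 3.33% with arrays centred on their medians. They were Cd300ld (10.67 on Gr1+ and 7.87 on Gr1-), Cd300lb (10.81 and 8.51), Trem1 (10.76 and 8.63), Trem3 (9.80 and 7.73) and Cd300lf (12.17 and 10.45), with differences of 2.80, 2.30, 2.13, 2.07 and 1.72. Trem2 was at 8.96 on Gr1+ and 10.61 on Gr1-, a difference of -1.65.

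Fitted over both tissues with limma, 6 of the 10 genes were higher on the Gr1+ arrays and 1 was lower at an adjusted p under 0.05, where 2.87% of all genes were higher and 5.08% lower. Cd300lb was 2.14 higher (SE 0.19, adjusted p = 0.00351), Cd300ld 2.09 (SE 0.33, adjusted p = 0.0175), Trem3 1.70 (SE 0.23, adjusted p = 0.0111) and Trem1 1.52 (SE 0.30, adjusted p = 0.0347). Trem1 missed the threshold under each of 3 rescalings and without the tissue block, with adjusted p-values from 0.0349 to 0.369 over 5 other settings. Cd300lf was 1.41 higher (SE 0.22, adjusted p = 0.0160) and Treml4 0.81 (SE 0.18, adjusted p = 0.0486), while Trem2 was lower, with a difference of -1.56 (SE 0.18, adjusted p = 0.00684). Tyrobp (0.31, adjusted p = 0.437), Treml2 (0.40, adjusted p = 0.270) and Cd300a (0.44, adjusted p = 0.416) did not pass. The fit had 2 Gr1+ and 2 Gr1- arrays with tissue as a block. The sign of each of the 7 differences was the same in brain and blood. A gene passes this fit only when its 2 pairs differ alike, so the equal signs add no support. Without the block Trem2 alone passed (adjusted p = 0.0307), beside 0.762% of all genes higher and 1.73% lower. Restricted to genes above background, 7 of the 10 were tested, and Cd300lb, Cd300ld, Cd300lf and Trem2 passed in the same directions, beside 9.92% higher and 12.8% lower. The p-value measures the spread between 1 pair in each tissue, not between animals.

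The same arrays differed in their marker genes. All 11 microglia markers were lower on the Gr1+ arrays in this fit, with a median difference of -3.24, 6 of 7 monocyte markers were higher, with a median of 2.78, and 7 of 13 neutrophil markers were higher, with a median of 2.24. Tumor Gr1- had 5 of 10 NK cell markers above background, and 9 of 10 were lower by 2-fold or more on tumor Gr1+, with a median difference of -2.28. In blood 4 of 5 B cell markers were lower on Gr1+, with a median of -1.57. The part of these cells in the Gr1 differences was not tested. Because blood Gr1- carried microglia markers, blood Gr1+ was also set against tumor Gr1-, a comparison added after the markers had been seen. There Cd300lb (3.43), Cd300ld (3.03), Trem1 (2.91), Trem3 (2.17), Cd300lf (1.78) and Treml4 (1.31) were higher by 2-fold or more and Trem2 was lower (-1.73). Of all genes 11.0% were 2-fold apart, 5.14% upward and 5.84% downward.

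**Figure D4:**
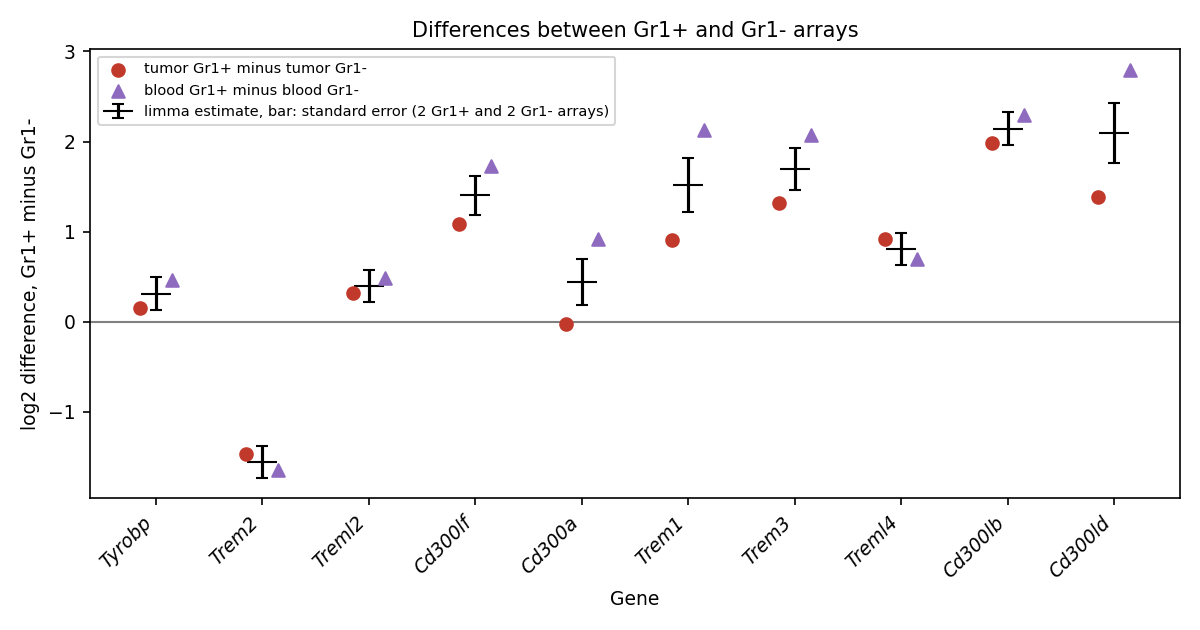
Log2 difference, Gr1+ minus Gr1-, of the 10 genes (horizontal axis) in tumor brain (circles) and in blood (triangles), with the limma estimate over both and its standard error (bars). Trem2 was the only gene below 0 in both tissues, at -1.47 and -1.65, and Cd300lb and Cd300ld had the largest estimates, 2.14 and 2.09.

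Blood macrophages labelled high and low gave opposite differences between tumor-bearing and normal mice. Whether the labels of one of these pairs were exchanged was not tested, and an exchange would change which populations each difference compares. In blood macrophage high, 9 of 10 genes were higher by 2-fold or more in tumor-bearing mice. There 50.6% of all genes were 2-fold apart, 17.7% upward and 32.9% downward, and centring each array on its median turned this split to 24.6% and 11.6%. Cd300ld was at 11.85 in tumor-bearing and 6.08 in normal mice, and Treml4 at 11.39 in tumor-bearing and 7.37 in normal mice. Tyrobp differed by 2.54 there, or by 0.96 under cyclic loess. In blood macrophage low, 7 of 10 were lower by 2-fold or more in tumor-bearing mice. There 9.35% of all genes were 2-fold apart, 3.29% upward and 6.06% downward, or 3.99% and 4.81% after quantile normalization. Cd300ld was at 6.21 in tumor-bearing and 11.49 in normal mice, and Treml4 at 7.77 in tumor-bearing and 11.99 in normal mice. Trem2 was below background on all 4 arrays. The arrays with low values, normal blood macrophage high and tumor blood macrophage low, were those with NK cell markers and no neutrophil marker above background. Set against each other across the labels, which was added after the markers had been seen, tumor blood macrophage high and normal blood macrophage low differed by 2-fold in 2 genes, Cd300lf (1.57) and Trem1 (1.09), beside 7.58% of all genes, 1.79% upward and 5.79% downward. Tumor blood macrophage low and normal blood macrophage high also differed in 2, Trem1 and Cd300lb, which were below background on both, beside 26.7% of all genes.

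Over the 4 populations sorted from both kinds of mice, no gene of the set passed limma's adjusted p of 0.05 for tumor minus normal, and 0.0% of all genes passed in either direction, with 811 genes at an unadjusted p under 0.05. Cd300lf averaged 10.39 ± 1.53 on the tumor arrays and 8.87 ± 1.40 on the normal arrays (SD, n = 4 each), a difference of 1.52 (SE 0.58, adjusted p = 0.891). Treml2 averaged 10.44 ± 0.41 on the tumor arrays and 9.31 ± 0.78 on the normal arrays, a difference of 1.13 (SE 0.37, adjusted p = 0.6). Both had unadjusted p-values under 0.05, as the only genes of the set. With the blood macrophage arrays paired crosswise, Cd300lf (adjusted p = 0.000244) and Treml2 (adjusted p = 0.0205) passed, beside 0.502% of all genes higher and 1.2% lower. That pairing was chosen after the markers had been seen and goes against the labels. Without the blood macrophage low pair Cd300lf alone passed, with a difference of 2.73 (adjusted p = 2.73e-05), beside 0.481% of genes higher and 0.261% lower. The pair left out was the only one in which Cd300lf was lower on the tumor array (-2.12), so this pass is no independent support. That fit also keeps the blood macrophage high pair, whose tumor and normal arrays differed in neutrophil, monocyte and NK cell markers. Cd300lf was below background on normal MG (7.20) and on normal blood macrophage high (8.39), and the part of the markers was not tested.

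Between tissues, none of the 10 genes passed, where 0.0% of all genes were higher in brain and 0.0351% lower, and 2082 genes had an unadjusted p under 0.05. Trem2 averaged 10.46 ± 0.70 on brain arrays and 8.52 ± 1.11 on blood arrays (SD, n = 6 each), a difference of 1.94 (SE 0.46, adjusted p = 0.179). Without blood Gr1-, the blood array with microglia markers, the difference was 2.36 (SE 0.33, adjusted p = 0.00444), beside 2.16% of genes higher and 0.757% lower. The array left out had the highest Trem2 value in blood (10.61), and Trem2 follows the microglia markers in pattern. That pass is therefore no independent support. Trem1 averaged 8.37 ± 0.43 on brain arrays and 9.61 ± 1.53 on blood arrays, a difference of -1.25 (SE 0.54, adjusted p = 0.424). A further limma fit left out 3 blood arrays with microglia or NK cell markers: blood Gr1-, tumor blood macrophage low and normal blood macrophage high. In it Trem2 was higher in brain (2.26, adjusted p = 0.0228) and 6 genes were lower, from -1.44 for Cd300a to -3.26 for Cd300ld, beside 1.12% and 1.71% of all genes. B cell markers were above background on the blood arrays kept as well. The 3 arrays left out were chosen after their markers had been seen, and those markers follow the genes of the set, so this fit is no independent support.

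Of 10 other TREM and CD300 genes, 5 were measured and none was 2-fold apart in the brain or Gr1 comparisons. Cd300c2 lay between 10.97 and 11.54 on the 10 arrays where it was above background, and at 7.61 on tumor blood macrophage low. Cd300e was above background on tumor blood macrophage high (9.90) and normal blood macrophage low (10.5) alone. Of 15 measured ITAM adaptor and signaling genes, 1 (Vav3, below background on both arrays) was higher by 2-fold or more on tumor MG than on normal MG, none was 2-fold apart in tumor against normal MP, and 1 passed limma as higher and 1 as lower on the Gr1+ arrays. The lower one was Pik3r1 (-1.06, SE 0.22, adjusted p = 0.0367), a kinase subunit named after its value was seen. The higher one was Vav3, a guanine nucleotide exchange factor of this cascade, at 10.08 on tumor Gr1+ and 8.45 on tumor Gr1-, and at 10.07 on blood Gr1+ and 8.63 on blood Gr1- (difference 1.53, SE 0.18, adjusted p = 0.00731). None of the 3 phosphatase genes recruited by ITIM receptors, Inpp5d, Ptpn6 and Ptpn11, was 2-fold apart in brain or between Gr1+ and Gr1- arrays.

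Among genes for ligands and partners of the TREM receptors, Pglyrp1, which encodes a peptidoglycan recognition protein that binds TREM-1, was at 8.12 on tumor MP and 11.61 on normal MP. Clu and Sema6d, which encode ligands for Trem2 and for the plexin coreceptor, were at 8.85 and 8.01 on tumor MP and at 10.95 and 10.60 on normal MP. On tumor MG they were at 8.85 and 8.10, and on normal MG at 10.47 and 10.29, so that both were above background on normal brain arrays and below it on these tumor arrays. Markers of other brain cells were lower beside them. Of 6 such markers, 4 (Mbp, Mobp, Snap25 and Gja1) were lower by 2-fold or more on tumor MG, with a median difference of -1.50 over the 6, and the same 4 were so on tumor MP, with a median of -1.61. Their part in the values of Clu and Sema6d was not tested. Apoe, a Trem2 ligand, was at 13.29 on tumor MG and 12.30 on normal MG, and at 13.56 on tumor MP and 13.41 on normal MP. Of the 9 ligand, coreceptor and sheddase genes, Clu and Sema6d were lower by 2-fold or more on tumor MG, these and Pglyrp1 were so on tumor MP, and 0 were higher on either.

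Of 19 measured genes known to depend on Trem2 in mouse microglia, 7 were higher by 2-fold or more and none lower on tumor MG. Their median difference over the 19 was 0.31, and among all genes 2.44% were higher and 3.61% lower. Each of the 7 lay below the background of 9.43 on normal MG, so the size of these differences rests on values below background. The 7 included Gpnmb (9.69 on tumor MG and 7.22 on normal MG), Clec7a (11.34 and 8.90) and Csf1 (10.23 and 9.21), while Trem2 itself differed by -0.60. Between these MG arrays 6 of 7 monocyte markers were also higher by 2-fold or more, with a median difference of 2.14, and their part was not tested. On tumor MP 3 of the 19 genes were higher and 3 lower, with a median of 0.15, beside 1.65% and 3.58% of all genes. In the Gr1 fit 3 of 19 passed as higher and 5 as lower, with a median of -0.33, beside 2.87% and 5.08% of all genes. Clec7a, a beta-glucan receptor that neutrophils and monocytes also express, was higher on the Gr1+ arrays (0.90, SE 0.20, adjusted p = 0.0464), as was the chemokine gene Ccl6 (1.28, SE 0.18, adjusted p = 0.0126), in the opposite direction to Trem2. The 5 genes that passed as lower went in the same direction as Trem2. Among other receptors that use DAP12, Klra8, an NK cell receptor, was at 13.24 on tumor blood macrophage low and 12.83 on normal blood macrophage high, at 9.67 on tumor Gr1-, and below background on the remaining 9 arrays. Clec5a, a myeloid receptor, was at 10.31 on tumor MG and 10.88 on normal MG, and at 5.77 on tumor blood macrophage low. Of the 9 measured receptors of this kind 1 passed limma as higher on the Gr1+ arrays, Pilrb1 (1.58, SE 0.20, adjusted p = 0.00948), and 2 as lower, Klra8 (-2.40, adjusted p = 0.0368) and Siglech (-3.24, adjusted p = 0.00368), which is also one of the microglia markers. Pilrb1 was above background on the same 5 arrays as Cd300lb and correlated with it at r = 0.96. Pilrb1 and Siglech were named after their values were seen.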

How the data were processed

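The authors amplified RNA in 2 cycles, hybridized it to Affymetrix Mouse Gene ST arrays and made the deposited log2 values in Affymetrix's Expression Console. The submitters' notes name RMA. Its settings, the probe annotation's release and the build are not given in the sources used here. Of 28944 probe sets, 21789 carry 1 gene symbol, 1621 several and 5534 none, and only the first kind was used. The brightest probe set over the 12 arrays stood for each of 999 genes with several, which left 19938 genes. Values were neither rescaled nor filtered. Groups came from the sample titles.

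Differences between 2 arrays carry no test and were counted past 2-fold. limma 3.58.1 in R 4.3.3 (lmFit, eBayes, Benjamini-Hochberg over all genes) gave the 3 fits over several arrays, whose p-values measure the spread between populations. The fits were tested on simulated data with known changes. The simulated arrays were drawn independently and held no mixed populations, so that test checks the code and not these arrays. The 10 genes and the other lists were chosen with earlier results of these data known. Genes outside the set were named by a rule, the 3 most similar in pattern and up to 4 with the largest range per list. Alternatives were 3 rescalings, probe set means, background floors and filters, other folds, other blocks and leaving out arrays. Tables were handled in pandas 2.3.3 under Python 3.11.15. The number of arrays limits the precision.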

Additional observations from a re-analysis of the deposited data

Results flagged for a closer look

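In 7 of the 10 genes, blood macrophage high and blood macrophage low differed between tumor-bearing and normal mice in opposite directions by more than 2-fold each. The log2 difference, tumor minus normal, was 2.89 in high and -2.87 in low for Trem1, 3.63 and -3.39 for Trem3, and 4.02 and -4.22 for Treml4. It was 3.40 in high and -3.29 in low for Cd300a, 2.69 and -4.59 for Cd300lb, 5.77 and -5.29 for Cd300ld, and 3.64 and -2.12 for Cd300lf. Each value is a difference of 2 single arrays, so the difference between high and low was not tested. The same pairs of arrays differed in marker genes. Of 10 NK cell markers, 0 were above background on tumor and 8 on normal blood macrophage high, and 10 on tumor and 0 on normal blood macrophage low. Of 13 neutrophil markers, 10 were above background on tumor and 0 on normal blood macrophage high, and 0 on tumor and 10 on normal blood macrophage low. For 7 monocyte markers these counts were 7 and 0 in high, and 3 and 6 in low. Trem2, Treml2 and Tyrobp did not meet this pattern.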

How the results depend on the processing

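With values below background raised to it, the counts of genes at least 2-fold apart became 1 in place of 2 for tumor against normal MG, 2 in place of 7 for tumor against normal MP, 1 in place of 6 for normal MP against normal MG and 2 in place of 5 for tumor Gr1+ against Gr1-. With a 1.5-fold threshold the MG count was 5, and with a 3-fold threshold the MP count was 3 and the tumor Gr1 count 1. Set against the other normal blood macrophage array, an alternative added after seeing the data, both blood macrophage counts fell to 2. There Treml4 changed sign, to -0.60 for blood macrophage high and 0.40 for low, as did Cd300ld for low, to 0.13. For low, Tyrobp differed by 0.83 in place of -0.96 and Treml2 by 0.89 in place of -0.09, and Trem2, below background throughout, changed sign for both. In the Gr1 fit 7 genes passed, 1 without the tissue block and 4 of 7 tested among genes above background. Trem1 missed the threshold under each of the 3 rescalings, and leaving out an array left no residual degrees of freedom. Of the brain and blood fit, leaving out 1 array at a time gave 0 to 1 genes, with the 1 obtained without blood Gr1-, and leaving out 3 blood arrays gave 7. Of the matched tumor and normal fit, leaving out 1 array gave 0 to 1, with the 1 obtained without tumor or normal blood macrophage low, and crosswise pairing gave 2. The cause was not tested. Over all genes the Gr1 fit called 573 higher and 1013 lower, or 152 and 345 without the block, 494 and 634 after median centring, 416 and 694 after quantile normalization, and 483 and 688 after cyclic loess. The brain and blood fit called 0 and 7, or 431 and 151 without blood Gr1-, 1 and 28 without blood Gr1+, and 223 and 341 without the 3 blood arrays. The matched fit called 0 and 0, or 5 and 0 with brain arrays alone, 0 and 15 without tumor or normal MG, 1 and 25 without tumor or normal MP, 96 and 52 without either blood macrophage low array, and 100 and 239 with crosswise pairing. The 3 rescalings shifted the median difference of all genes by 0.37 to 0.60 in blood macrophage high and by 0.12 to 0.21 between MP and MG of normal brain. The labels carry no replicate numbers, so the blocks were tissue and population.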
